A study of Mus musculus with 6 samples.

Results

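The genes described here encode the proteasome, its immunoproteasome subunits, the regulatory cap, the other activators and the assembly chaperones. They were taken from the deposited expression table as every row whose platform gene symbol begins with Psma, Psmb, Psmc, Psmd, Psme, Psmf or Psmg followed by a digit, and 50 of 19494 named genes met that rule. By role they comprised 13 subunits of the constitutive core particle (20S), the 3 immunoproteasome subunits Psmb8, Psmb9 and Psmb10, 17 subunits of the regulatory cap (19S), 7 assembly chaperones, 6 genes for other activators and an inhibitor, and 2 core subunits of restricted tissue expression. The remaining 2, Psmc3ip and Psme3ip1, share the naming pattern without being proteasome subunits and are given apart. Psmb5, a constitutive catalytic subunit, was not analysed here.

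The proteasome is the protease that degrades ubiquitin-tagged proteins in the cytosol and nucleus. Its core particle is a barrel of stacked alpha and beta rings in which a few beta subunits cut peptide bonds, and a cap at its end recognises the tagged protein, unfolds it with a ring of ATPases and removes the ubiquitin chain. In lymphocytes, and in other cells exposed to interferon gamma, newly built core particles carry the immuno-subunits in place of the constitutive catalytic ones, which shifts the peptides made towards those suited to MHC class I, and T cells depend on proteasome activity when they are activated and divide.

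The cells were regulatory T cells from the lamina propria of tumorous colon, taken from mice with colorectal cancer induced with azoxymethane (AOM) and dextran sulfate sodium (DSS). All mice carried both the Foxp3-RFP and the GPR15-GFP reporter. CD4-stained, RFP+ cells were sorted into a GPR15-GFP+ and a GPR15-GFP- fraction, GPR15 being a homing receptor for the large bowel, and each fraction was measured on 3 Affymetrix arrays whose titles carry the numbers 1, 5 and 6. The labels used here do not say whether a number stands for a mouse or a pool, nor the age or strain background of the mice, so every p-value reflects the spread among these 6 arrays alone. Values are the log2 levels deposited by the authors, a change of 1 being a doubling, and differences are those labelled GPR15+ minus those labelled GPR15-.

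Before the results, 2 features of the arrays bear on every value. The Gpr15 probe set was lower, not higher, in the samples labelled GPR15+: it read 8.51, 9.12 and 8.70 in the GPR15- samples numbered 1, 5 and 6 and 8.23, 7.86 and 8.28 in the GPR15+ samples, without overlap (difference -0.65 ± 0.22 SE, limma adjusted p = 0.773), so directions below follow the labels. Both arrays numbered 1 had a narrower spread of levels (SD over all deposited rows 1.63 in each) than the other 4 (1.74 to 1.87), and genes at a level of 9 or more were lower on them, by a median of 0.34 on the log2 scale (-0.34). The mean level of 11 T and regulatory T cell markers lay between 9.82 and 10.2 on all 6 arrays, while those of the marker lists for B and plasma cells, macrophages, dendritic cells and epithelium lay between 5.46 and 6.78, on a scale without a true 0. The mean of the stromal list lay between 6.69 and 6.90, and that of the CD8 T and NK list between 5.97 and 6.40. Single genes departed from their lists. Il2ra, a T and regulatory T cell marker, lay between 4.64 and 5.42, and Col1a1, a stromal marker, averaged 8.49. Foxp3 was not analysed here.

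No proteasome gene passed the test between the fractions in the fit with equal array weights. None of the 50 passed limma with Benjamini-Hochberg adjustment at 0.05, where 0% of all 19494 genes did, and their adjusted p-values ran from 0.773 to 0.993. At an unadjusted p under 0.05 the members gave 0 calls against 6.23% of all genes (2.79% higher and 3.44% lower in GPR15+). With the title number as a block, 0 passed after adjustment and 3 at the unadjusted level, Psmc6 higher and Psmd1 and Psmd7 lower, against 12.4% of all genes. The median over the 48 proteasome genes was 0.08, with 35 above 0 and 13 below, beside -0.06 over all genes and 0.07 over all genes at a level of 9 or more. Of all genes 40.8% were above 0, and of those at a level of 9 or more 62.9%. With the GPR15+ sample numbered 1 left out, 11 members had an unadjusted p under 0.05, 9 higher and 2 lower, against 22.3% of all genes, and 0 passed after adjustment. No member had its 3 GPR15+ samples above its 3 GPR15- samples (4.12% of all genes did), and 2, Psmd7 and Psmc3ip, had them all below (9.17% of all genes).

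**Figure D1:**
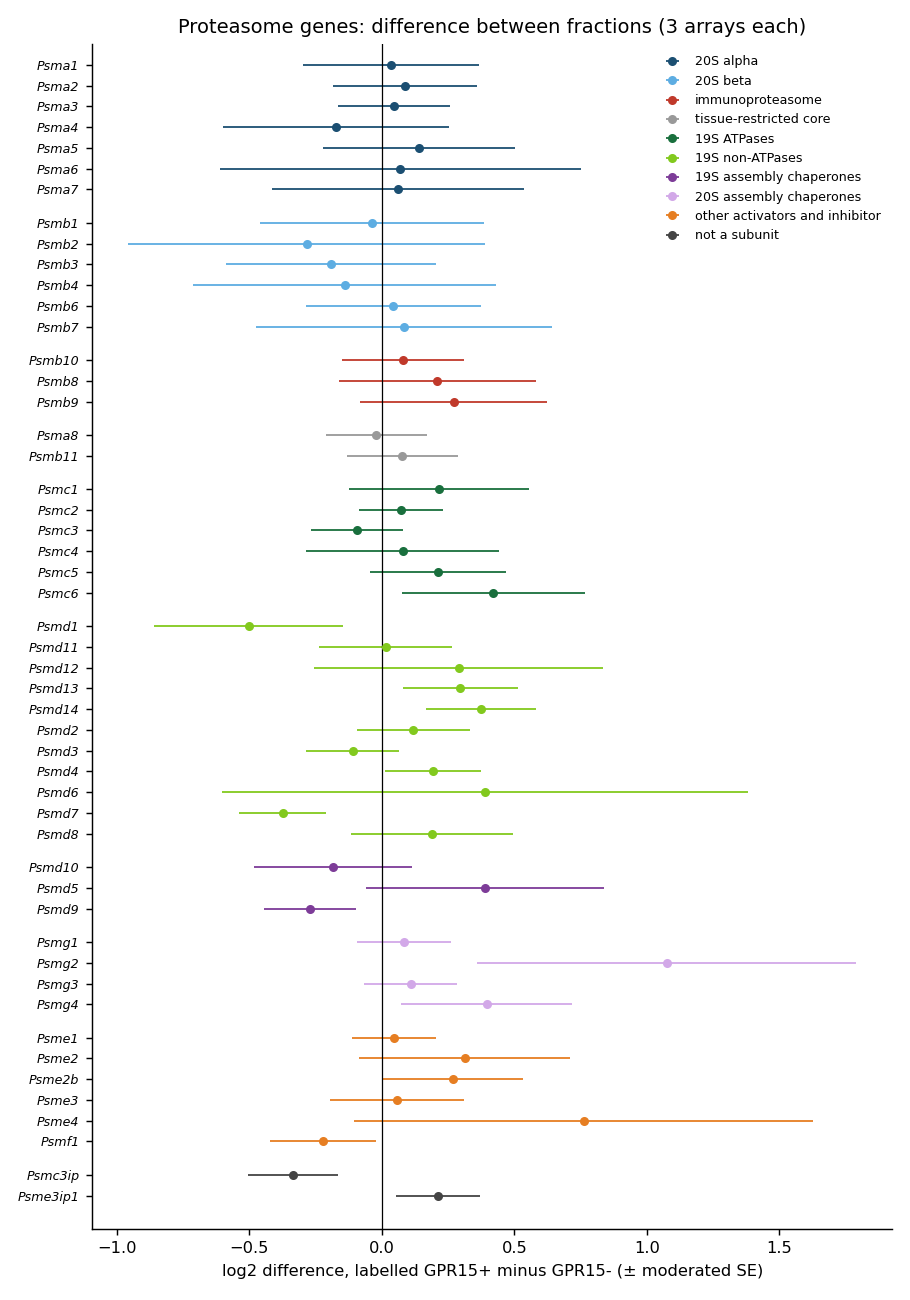
Difference between the fractions for each of the 50 genes, on the log2 scale (horizontal axis, labelled GPR15+ minus GPR15-; points are limma estimates over 3 arrays each, bars the moderated standard error), coloured by role. The points of the core and cap lie on both sides of 0, the 3 immunoproteasome subunits lie above it at 0.08 to 0.27, and Psmg2 and Psme4 lie farthest right with the widest bars but that of Psmd6.

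The immunoproteasome is described first, since its 3 subunits replace named partners in the core. Psmb8 stands in for Psmb5, Psmb9 for Psmb6 and Psmb10 for Psmb7. Psmb8 read 9.16, 9.70 and 10.04 in the GPR15- samples numbered 1, 5 and 6 and 9.06, 10.10 and 10.37 in the GPR15+ samples. The fractions overlapped, and in both the sample numbered 1 was lowest. The means were 9.63 ± 0.44 and 9.84 ± 0.69 (SD, n = 3), a difference of 0.21 ± 0.37 SE (limma adjusted p = 0.912). Psmb9 read 9.58, 9.44 and 10.11 in GPR15- and 9.20, 10.21 and 10.53 in GPR15+. Here the GPR15+ samples held both the lowest and the highest value. The means were 9.71 ± 0.35 and 9.98 ± 0.70 (SD, n = 3), a difference of 0.27 ± 0.35 SE (limma adjusted p = 0.886). Psmb10 read 7.57, 7.57 and 8.16 in GPR15- and 7.60, 7.82 and 8.12 in GPR15+, and its samples numbered 6 were highest in both fractions. Its means of 7.77 ± 0.34 and 7.85 ± 0.26 (SD, n = 3) differed by 0.08 ± 0.23 SE (limma adjusted p = 0.947). The median of the 3 differences was 0.21. It was -0.10 between the samples numbered 1, 0.41 between those numbered 5 and 0.32 between those numbered 6. It was 0.13 with each array's intensity trend removed, 0.10 after quantile normalization and -0.051 without the GPR15+ sample numbered 6.

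The constitutive catalytic partners Psmb6, which cuts after acidic residues, and Psmb7, which cuts after basic ones, were read in the same way. Psmb6 read 9.46, 10.28 and 10.25 in GPR15- and 9.42, 10.42 and 10.29 in GPR15+ (difference 0.04 ± 0.33 SE, limma adjusted p = 0.983). Psmb7 read 8.15, 9.17 and 9.72 in GPR15- and 7.91, 9.76 and 9.62 in GPR15+ (difference 0.08 ± 0.56 SE, limma adjusted p = 0.981). Both genes separated the samples numbered 1, which were low in either fraction, from the other 4. The mean of the 3 immuno-subunits minus the mean of Psmb6 and Psmb7, an index of the balance between the forms on this array and not a ratio of amounts, was -0.47 ± 0.40 in GPR15- and -0.35 ± 0.34 in GPR15+ (SD, n = 3). The difference of 0.12 was smaller than either SD, and each SD includes the spread between numbers. By number the difference was -0.01, 0.11 and 0.26, with an SD of 0.14 (n = 3). In both fractions the index was highest in the sample numbered 1, at -0.04, and it lay between -0.82 and -0.29 in the other 4.

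**Figure D2:**
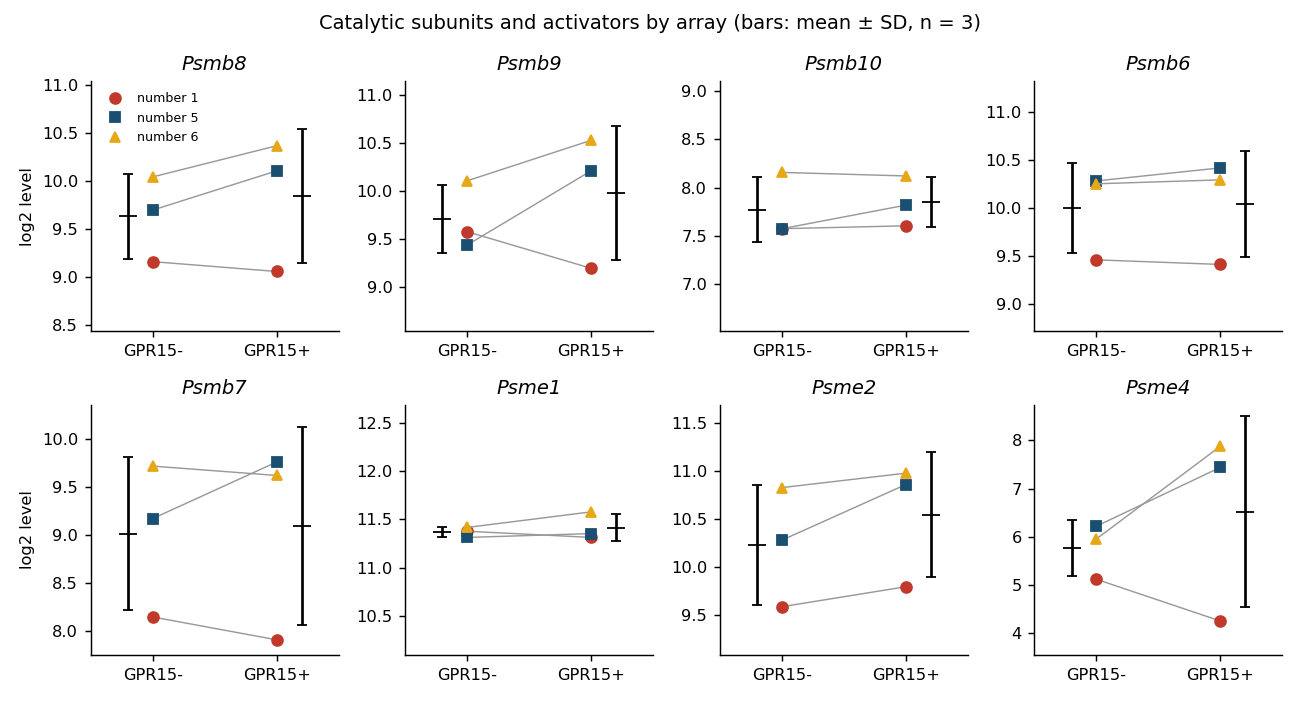
Log2 level (vertical axis, with a wider range for Psme4) of the immunoproteasome subunits, their constitutive counterparts and 3 activators in the samples labelled GPR15- and GPR15+. Colours and shapes mark the title number, grey lines join samples of one number and bars give the mean ± SD of 3 arrays. In Psmb8, Psmb6, Psmb7, Psme2 and Psme4 the red points of number 1 sit below all others in both fractions.

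The promoters of these genes show how the immuno-subunits are arranged in the genome and which known response elements their letters hold. Psmb9 and Psmb8 lie beside the peptide transporter genes Tap1 and Tap2 on mouse chromosome 17, in the order Psmb9, Tap1, Psmb8, Tap2, and the annotated starts of Psmb9 and Tap1 are 225 bases apart on opposite strands. Sequences are from RefSeq on GRCm38.p6, written 5′ to 3′ on the strand of the gene named. The first is the whole stretch shared by Psmb9 and Tap1 (chr17:34187331-34187555, minus strand), with capitals on ATTGG, which is the CCAAT box read on the other strand. The second is part of the Psmb8 promoter (chr17:34198065-34198134, plus strand), with capitals on a match to TTCNNNGAA, the gamma-activated sequence bound by STAT factors. The third is the end of the Psmb6 promoter (chr11:70525297-70525356, plus strand), shown for contrast, with capitals on a match to TGACNNNGC, the core of the antioxidant response element read by NRF1 and NRF2.
Psmb9 and Tap1: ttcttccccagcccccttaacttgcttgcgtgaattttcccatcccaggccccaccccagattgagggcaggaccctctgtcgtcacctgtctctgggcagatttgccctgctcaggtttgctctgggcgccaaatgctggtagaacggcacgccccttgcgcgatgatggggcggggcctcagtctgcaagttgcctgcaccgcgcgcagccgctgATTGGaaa
Psmb8: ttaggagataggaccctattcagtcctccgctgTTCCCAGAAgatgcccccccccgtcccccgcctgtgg
Psmb6: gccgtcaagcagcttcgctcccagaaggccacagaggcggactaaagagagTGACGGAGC

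A promoter of 250 bases before the start was listed for 40 of the 48 proteasome genes, and each motif was searched on both strands and counted by gene. TTCNNNGAA was found in 2 of them, Psmb8 and Psmg1, beside 8.13% of all genes with a promoter. TGACNNNGC was found in 4, Psmb6, Psmc6, Psmd12 and Psmd9, beside 11.5% of all such genes. The interferon-stimulated response element, searched as GAAA, any NN and GAAA in a row, was found in Psmb3, Psmd4 and Psmd9, beside 3.46%, and CCAAT in 14, among them 6 of 10 core genes with a promoter, beside 37.5%. These matches describe letters only. Of the genes with TTCNNNGAA, Psmb8 differed between the fractions by 0.21 and Psmg1 by 0.08. Of the 4 with TGACNNNGC, Psmc6 differed by 0.42, Psmd12 by 0.29, Psmb6 by 0.04 and Psmd9 by -0.27.

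The constitutive core had a median difference of 0.04 over its 13 genes, with 8 above 0 and 5 below. That value pools opposite signs: the median was -0.29 between the samples numbered 1 and 0.18 and 0.13 between those numbered 5 and 6, and it was 0.22 without both samples numbered 1. Leaving out 1 sample moved it from -0.33, without the GPR15- sample numbered 1, to 0.44, without the GPR15+ sample numbered 1. It was -0.03 once each array's intensity trend was removed and -0.05 after quantile normalization. The 7 alpha subunits, which form the outer rings and the gate, had a median of 0.06, and the 6 beta subunits one of -0.09. The highest difference of the core was in Psma5, an alpha-ring subunit, which read 9.44, 10.56 and 10.71 in GPR15- and 9.91, 10.56 and 10.65 in GPR15+ (0.14 ± 0.36 SE, limma adjusted p = 0.940). The lowest was in Psmb2, a non-catalytic beta subunit, which read 8.51, 9.45 and 9.48 in GPR15- and 7.16, 9.92 and 9.51 in GPR15+ (-0.28 ± 0.67 SE, limma adjusted p = 0.934). The low mean of Psmb2 in GPR15+ came from 1 array, that numbered 1, while the other pairs stood at 0.47 and 0.03.

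Among the core, the immunoproteasome and the cap, the cap held the widest range of differences, from -0.50 to 0.42. Its 17 genes had a median of 0.19, with 13 above 0 and 4 below, and the median was 0.11 with the intensity trend removed, 0.054 after quantile normalization and -0.051 without the GPR15- sample numbered 1. The ATPases, which unfold the substrate and open the gate of the core, had a median of 0.14, and the non-ATPase subunits one of 0.19. Psmc6, the ATPase with the highest value, read 7.73, 8.73 and 8.63 in GPR15- and 8.20, 8.98 and 9.18 in GPR15+. The GPR15+ sample was above its GPR15- counterpart in each number, by 0.47, 0.25 and 0.54, although the fractions overlapped (0.42 ± 0.35 SE, limma adjusted p = 0.816, and 0.379 with the replicate block). Psmd1, the large scaffold subunit at the base of the cap, read 8.26, 9.23 and 9.30 in GPR15- and 7.82, 8.66 and 8.80 in GPR15+. The GPR15+ sample was below its counterpart in each number by nearly the same amount, -0.45, -0.56 and -0.50 (-0.50 ± 0.36 SE, limma adjusted p = 0.797, and 0.347 with the replicate block).

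The lid of the cap carries the deubiquitinase Psmd14 and its structural partner Psmd7, both chosen for description after their values were seen. Psmd7 read 10.17, 10.05 and 10.26 in GPR15- and 9.95, 9.68 and 9.73 in GPR15+, with every GPR15+ sample below every GPR15- sample. Its difference of -0.38 ± 0.16 SE had the smallest unadjusted p of the 50 genes, 0.052 (limma adjusted p = 0.773). Psmd14 read 7.57, 7.23 and 7.42 in GPR15- and 7.43, 7.86 and 8.06 in GPR15+, a difference of 0.37 ± 0.21 SE (limma adjusted p = 0.773). These partners therefore had differences of opposite sign, neither past the threshold, and the fractions overlapped in Psmd14 through the samples numbered 1. Limma with array weights, which gave a weight of 6.56 to the GPR15+ sample numbered 6 and of 0.19 to that numbered 1, called 11.2% of all genes and 5 members: Psmd7 lower by this fit (-0.44), and Psmd14 (0.65), Psme4 (1.82), Psmg2 (1.36) and Psmg4 (0.63) higher.

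The assembly chaperones, which build the particles and leave before the proteasome is active, had a median of 0.11, with 5 of 7 above 0. Those of the core were spread apart. Psmg2 forms a heterodimer with Psmg1 that starts the alpha ring. Psmg2 read 4.79, 4.98 and 5.49 in GPR15- and 4.36, 7.61 and 6.52 in GPR15+, the 2 highest values being those of GPR15+ numbered 5 and 6 and the lowest that of GPR15+ numbered 1. The means of 5.09 ± 0.36 and 6.16 ± 1.65 (SD, n = 3) differed by 1.07 ± 0.72 SE (limma adjusted p = 0.785), the highest difference of all members. Psmg1 read 7.29, 7.54 and 7.72 in GPR15- and 7.62, 7.48 and 7.70 in GPR15+ (0.08 ± 0.18 SE, limma adjusted p = 0.930), so the dimer's partners did not vary together over these arrays. Psmg4, which dimerises with Psmg3 and was named after its values were seen, read 7.02, 7.26 and 7.21 in GPR15- and 6.78, 8.06 and 7.83 in GPR15+ (0.40 ± 0.32 SE, limma adjusted p = 0.813). Of the chaperones that assemble the cap base, Psmd5 read 5.42, 5.82 and 5.76 in GPR15- and 4.94, 6.87 and 6.37 in GPR15+ (0.39 ± 0.45 SE, limma adjusted p = 0.870). Psmg2, Psmg4 and Psmd5 shared one layout, with the GPR15+ sample numbered 1 lowest of the 6 and the other 2 GPR15+ samples highest. Psmd9, another cap chaperone, had the lowest difference of the class, -0.27 ± 0.17 SE (limma adjusted p = 0.778), with 8.88, 8.65 and 8.57 in GPR15- and 8.35, 8.32 and 8.61 in GPR15+.

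The other activators had a median of 0.16, and of 0.092 after quantile normalization. Psme1 and Psme2 form the PA28 ring, an interferon-inducible activator that opens the core without ATP. Psme1 was nearly level over the arrays, at 11.38, 11.31 and 11.42 in GPR15- and 11.31, 11.35 and 11.58 in GPR15+ (0.05 ± 0.16 SE, limma adjusted p = 0.955). Psme2 read 9.59, 10.28 and 10.83 in GPR15- and 9.80, 10.86 and 10.98 in GPR15+, higher in GPR15+ within each number by 0.21, 0.58 and 0.15 (0.31 ± 0.40 SE, limma adjusted p = 0.883). Psme2b is a near-identical copy of Psme2, so signal could be split between them and both values are uncertain. Psme4, the PA200 activator linked to histone turnover, read 5.11, 6.22 and 5.95 in GPR15- and 4.25, 7.44 and 7.88 in GPR15+. It had the same layout as Psmg2, with the lowest and the 2 highest values in GPR15+, and its means of 5.76 ± 0.58 and 6.52 ± 1.98 (SD, n = 3) differed by 0.76 ± 0.87 SE (limma adjusted p = 0.869). Psmf1, the inhibitor PI31, had the lowest difference of the class, -0.22 ± 0.20 SE (limma adjusted p = 0.831), with 8.96, 9.01 and 9.17 in GPR15- and 8.50, 9.12 and 8.84 in GPR15+.

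The genes of restricted expression were low and level. Psma8, an alpha subunit of the male germ line, lay between 4.29 and 4.77 on the 6 arrays, and Psmb11, the catalytic subunit of thymic cortical epithelium, between 5.97 and 6.63, highest in GPR15+ numbered 1. Of the genes that only share the name, Psmc3ip, a meiotic recombination factor, read 7.41, 7.73 and 7.57 in GPR15- and 7.39, 7.12 and 7.20 in GPR15+ (-0.33 ± 0.17 SE, limma adjusted p = 0.773), each GPR15+ value below each GPR15- value. Psme3ip1, which binds the nuclear activator PSME3, differed by 0.21 ± 0.16 SE (limma adjusted p = 0.803).

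Proteasome genes passed the test of the title number in the fit with equal array weights. In a limma F test of the number with the fraction in the model, 6 members passed after adjustment over all genes, against 1.82% of all genes and 4.98% of those at a level of 9 or more, and in all 6 the samples numbered 1 were lowest. They were the alpha subunits Psma4, Psma6 and Psma7, the catalytic subunit Psmb7, and Psmd6 and Psmd12, subunits of the lid of the cap. Psmd6 read 5.74 and 5.59 in the GPR15- and GPR15+ samples numbered 1, 8.03 and 8.88 in those numbered 5, and 8.39 and 8.85 in those numbered 6. The samples numbered 1 lay far below the other 4, 7.32-fold below by the means (limma F adjusted p = 0.0140). Psma6 read 8.47 and 8.23 in the samples numbered 1 and 10.19 to 10.46 in the others, 3.87-fold below (limma F adjusted p = 0.0203). Psma7 read 9.12 and 8.97 against 10.26 to 10.50 (2.51-fold, limma F adjusted p = 0.0325). Psmb7 was 2.90-fold below (0.0389), Psmd12 2.85-fold (0.0384) and Psma4 2.24-fold (0.0436), by the same F test. In these 6 genes the fractions of number 1 lay close together, the GPR15+ sample standing farthest from its counterpart in Psmb7, at -0.24. The count of 6 was 21 without the GPR15- sample numbered 1, against 10.2% of all genes. It was 2 without the GPR15+ sample numbered 1 (0.492% of all genes) and 3 without the GPR15+ sample numbered 5 (0.605%). Without both samples numbered 1 the test compares only numbers 5 and 6 and cannot test the low values of number 1. It then called 0 members and 1 of 19494 genes.

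**Figure D3:**
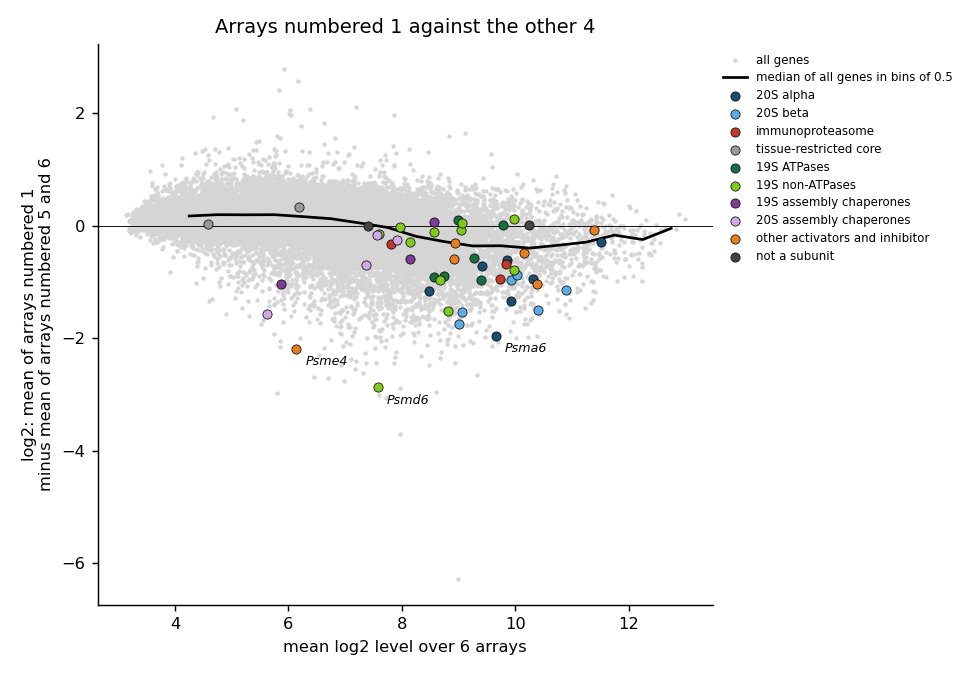
Mean log2 level over 6 arrays (horizontal axis) against the mean of the 2 arrays numbered 1 minus the mean of the other 4 (vertical axis, log2) for all genes (grey), with proteasome genes coloured by role and the running median of all genes as a black line. The line bends below 0 at higher levels, and 12 of the 13 core genes, all but Psma3, lie below the level trend, Psma6 lowest among them, with Psmd6 and Psme4 lower still.

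The low samples were shared over much of the complex, and over many other bright genes. Both samples numbered 1 lay below the other 4 in 29 of the 50 genes, against 15.8% of all genes and 48% of those at a level of 9 or more. By class this held for 12 of 13 core genes, all but Psma3, and for 8 of 17 cap genes, 5 of 7 chaperones, 3 of 6 other activators and 1 of 3 immuno-subunits, Psmb8. The median difference of number 1 from the other samples was -1.14 in the core, -0.69 in the immunoproteasome, -0.60 in the chaperones, -0.54 in the other activators and -0.29 in the cap, beside 0.09 over all genes and -0.34 over those at a level of 9 or more. With each array's trend against level removed, the core median was -0.80, and 2 of the 6 genes still passed, Psma6 (limma F adjusted p = 0.0350) and Psmd6 (0.0253), against 0.785% of all genes. Cap genes did not all follow: Psmc2, Psmc3, Psmd3 and Psmd7, of which all but Psmc3 were named after their values were seen, stood at 0.11, 0.02, 0.05 and 0.13. Psmb11 was the 1 member with both samples numbered 1 above the other 4, as in 20.7% of all genes. No marker of another cell type passed the F test of the number. In number 1 against the others the medians of the marker lists were 0.46 for macrophages, 0.28 for dendritic cells and 0.21 for stroma. They were 0.19 for epithelium, 0.16 for B and plasma cells and 0.14 for CD8 T and NK cells. For cycling genes the median was -0.19, and for T and regulatory T cells -0.37. With the trend removed these medians were, in the same order, 0.28, 0.22, 0.02, 0.15, 0.01, -0.0022, -0.27 and -0.12. The part of these cells in the proteasome values was not tested. In bulk samples fewer cells of a type and less RNA per cell cannot be told apart.

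**Figure D4:**
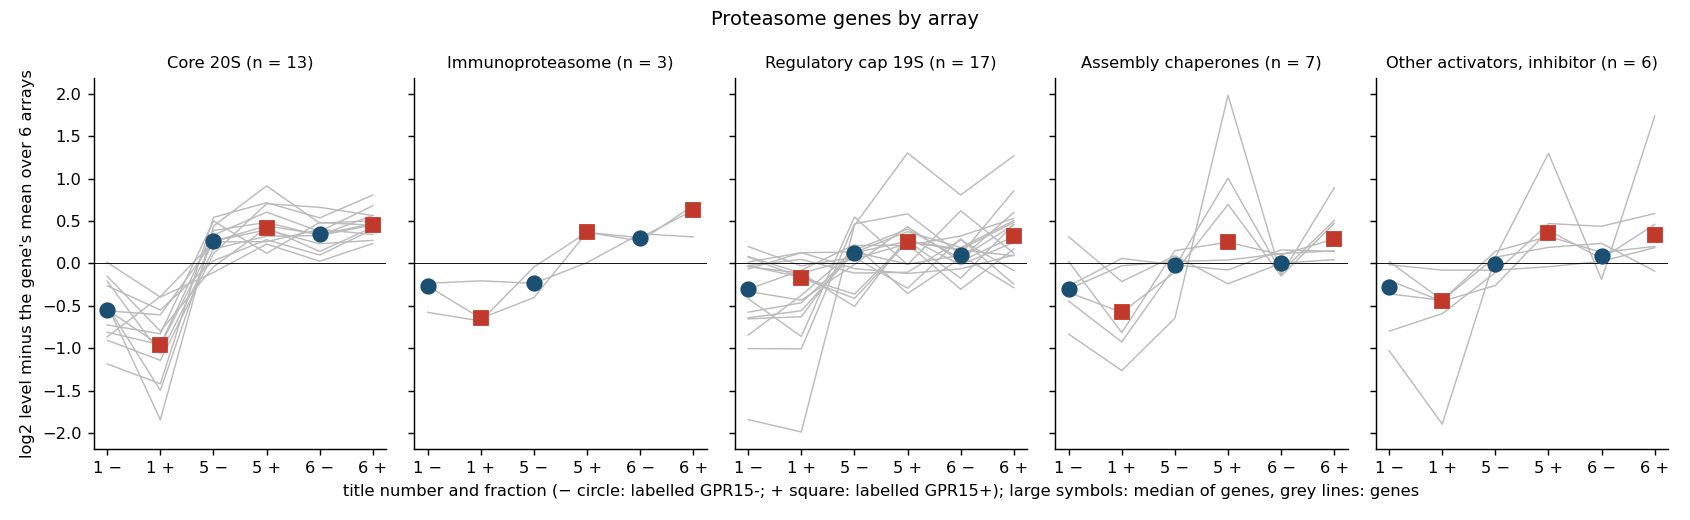
Log2 level of each gene minus its own mean over the 6 arrays (vertical axis) for the 5 main classes, by title number and fraction (horizontal axis; circles GPR15-, squares GPR15+, large symbols the median of the class, grey lines single genes). The core medians lie below 0 in both samples numbered 1 and above 0 in the other 4.

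The fraction differences changed sign with the title number in many members. Between the samples numbered 1 the core median was -0.29, with 12 of 13 genes below 0. It was 0.18 between those numbered 5 and 0.13 between those numbered 6, with 12 and 10 genes above 0. Over the 48 proteasome genes the 3 medians were -0.14, 0.18 and 0.20. A difference below 0 in number 1 and above 0 in numbers 5 and 6 was seen in 26 of 48 genes and in 10 of 13 core genes, against 13.5% of all genes and 32.8% of those at a level of 9 or more, and in 18 of 48 with the intensity trend removed (15.6% of all genes). Whether the fraction difference differs between the numbers was not tested, each number having 1 array per fraction. A shared sign in all 3 numbers was seen in 9 of the 48 genes, against 37% of all genes. Psmc1, Psmc4, Psmc6, Psmd8, Psmg3 and Psme2 were above 0 in each, and Psma4, Psmd1 and Psmd7 below, a group given by this pattern and so after its values were seen.

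**Figure D5:**
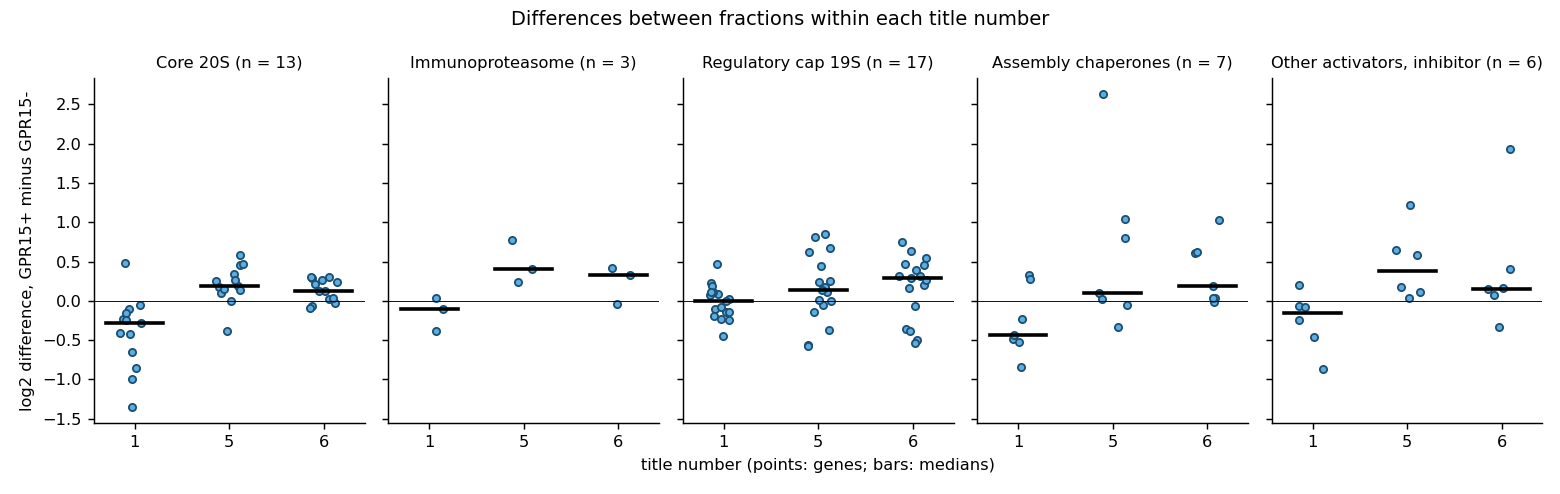
Difference between the fractions within each title number (vertical axis, log2, GPR15+ minus GPR15-) for each gene of the 5 main classes; points are genes and bars class medians. In the core the bar lies at -0.29 in number 1 and at 0.18 and 0.13 in numbers 5 and 6, and the topmost points are Psmg2 in number 5 and Psme4 in number 6.

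Without both samples numbered 1, which leaves 2 samples per fraction, limma still called 0 genes after adjustment. At an unadjusted p under 0.05 there were 14 members (21% of all genes), 11 higher and 3 lower in GPR15+, against 9.59% and 11.4% of all genes. The fractions did not overlap in 28 members with GPR15+ above and 6 with GPR15+ below, beside 21.4% and 34.7% of all genes and 49% and 12.1% of those at a level of 9 or more. Psme4 had the lowest adjusted p, 0.0803, at a difference of 1.58 ± 0.20 SE. Psmg2 stood at 1.83 ± 0.35 SE (limma adjusted p = 0.101), Psmg4 at 0.71 ± 0.16 SE (0.126) and Psmd5 at 0.83 ± 0.20 SE (0.135). The class medians were 0.22 in the core, 0.37 in the immunoproteasome, 0.28 in the cap, 0.14 in the chaperones and 0.24 in the other activators.

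Genes that work with the proteasome gave no adjusted calls between the fractions either, in the fit with equal array weights. Of 14 listed partners, such as ubiquitin ligases and deubiquitinases bound to the proteasome and the maturation factor Pomp, 11 were measured, with a median of 0.20 and 10 above 0. Usp14, a deubiquitinase on the cap, was the highest: it read 4.03, 5.04 and 4.45 in GPR15- and 5.08, 5.12 and 5.36 in GPR15+, with every GPR15+ value above every GPR15- value by a narrow gap (0.68 ± 0.26 SE, limma adjusted p = 0.773). The lowest was Zfand5, a ubiquitin-binding activator of the proteasome, at -0.04. Pomp, which closes the assembly of the core, was named after its values were seen. It passed the F test of the title number (limma F adjusted p = 0.0304), as 1.82% of all genes did. Pomp read 8.27 and 8.30 in the samples numbered 1 and 9.50 to 9.89 in the others, low in number 1 as 12 of 13 core genes were. The 7 measured genes of the transcriptional control of proteasome genes, by NRF1 and NRF2, had a median of 0.17. Keap1, the adaptor that holds NRF2 low, was highest at 0.63 ± 0.30 SE and Mafk, a small partner of both factors, lowest at -0.16 ± 0.22 SE (limma adjusted p = 0.773 and 0.892). Nfe2l1, which encodes NRF1, the factor that raises proteasome genes when activity falls short, stood at 0.17 ± 0.23 SE.

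The steps after and around the immunoproteasome also gave no adjusted calls between the fractions in that fit. Of 11 genes that load peptides onto MHC class I, 7 were above 0 and 4 below, with a median of 0.10. Tap1, which shares its promoter stretch with Psmb9, read 9.64, 9.44 and 9.73 in GPR15- and 10.06, 9.64 and 9.87 in GPR15+, higher in GPR15+ within each number by 0.42, 0.20 and 0.14 (0.26 ± 0.18 SE, limma adjusted p = 0.797). In number 1, where Tap1 was 0.42 higher, Psmb9 was at -0.38, so the neighbours did not have one sign there. The other transporter subunit, Tap2, stood at -0.36 ± 0.16 SE. Tapbpl, a peptide editor, was highest at 0.48 ± 0.23 SE and Tapbp, the tapasin of the loading complex, lowest at -0.38 ± 0.18 SE, each at a limma adjusted p of 0.773. Among 6 measured genes of interferon signalling, with a median of 0.21, Ifngr2, a chain of the interferon gamma receptor, was highest at 0.59 ± 0.27 SE (limma adjusted p = 0.773, and 0.303 with the replicate block). Jak2, the kinase on that receptor, was lowest at -0.19 and passed the F test of the title number (limma F adjusted p = 0.0350). Of 7 measured genes that attach or handle ubiquitin, with a median of 0.10, Uba6, an activating enzyme, was highest at 0.32 and also passed that F test (0.0318), and Nploc4, a cofactor of the unfoldase VCP, was lowest at -0.46 ± 0.46 SE. Beside these values stand the marker lists, read against all genes, of which 40.8% were above 0 at a median of -0.06. Over genes at a level of 9 or more the median was 0.07. The median was -0.36 for B and plasma cells (4 of 5 below 0), -0.30 for dendritic cells (5 of 5), -0.23 for epithelium (7 of 10) and -0.16 for macrophages (6 of 7). It was -0.10 for CD8 T and NK cells (4 of 6 below 0), -0.11 for stroma (5 of 6) and -0.05 for cycling genes (5 of 7), and 0.14 for T and regulatory T cells (7 of 11 above 0). With the intensity trend removed it was -0.25 for B and plasma cells, -0.22 for dendritic cells, -0.13 for epithelium and -0.035 for macrophages. For T and regulatory T cells it was then 0.052, for stroma 0.022, for CD8 T and NK cells -0.054 and for cycling genes -0.041. The mean level of the macrophage list ran from 6.13 to 6.40 in GPR15- and from 5.73 to 6.32 in GPR15+, that of the dendritic list from 6.55 to 6.64 and from 6.16 to 6.57, and that of the epithelial list from 6.56 to 6.78 and from 6.29 to 6.67. No marker passed after adjustment in the fit with equal array weights, and the part of these cells in the proteasome values was not tested.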

How the data were processed

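RNA of sorted cells was amplified and biotin-labelled with a GeneChip Pico kit and hybridised to Affymetrix arrays, per the labels' protocols. The authors deposited log2 values made with RMA, per the submitters' processing notes. RMA version, array design and genome build are not given in the sources used here. Of 22142 rows, 19527 had 1 gene symbol and 2615 none. The 33 genes with several rows kept the row with the highest mean, leaving 19494 genes. RMA pulls low values together, so folds of dim genes can be understated.

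Fractions (3 arrays each) were compared with limma 3.58.1 (lmFit, eBayes) in R 4.3.3 over all genes, with Benjamini-Hochberg adjustment at 0.05 and no block, and the title number with an F test in a model that also held the fraction. Scripts were tested on simulated data. Deviations from the fraction means correlated within numbers 1, 5 and 6 at r = 0.567, 0.381 and 0.319, each over 0.1. Same-numbered samples were therefore treated as pairs in the differences by number and in the fit with the replicate block. The main fit, which gave the SE and adjusted p-values not marked otherwise, does not use the pairing. Its SE was 0.36 for Psmd1 and 0.16 for Psmd7, beside 0.15 and 0.16 with the block. Crossed pairs of numbers 5 and 6 stood at 0.315 and 0.213, so the pairing chiefly sets number 1 apart. An exact permutation test of 3 against 3 cannot go below 0.1. The number of arrays limits precision. The intensity trend of an array is its lowess curve (span 0.3) against the mean level. Promoters are RefSeq's on GRCm38.p6.

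Members and gene lists were chosen with earlier results of these data known. Named genes are the catalytic and PA28 subunits, the highest and lowest of each class and partner list, those under 0.05 unadjusted and the 3 lowest p-values for the number. Others are marked. The immunoproteasome index uses Psmb6 and Psmb7 only, as Psmb5 was not analysed here. Alternatives were the block, leaving out arrays, scaling, a filter on the dimmest 40% of genes, array weights, variance trend and the mean of rows.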

Additional observations from a re-analysis of the deposited data

How the results depend on the processing

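The count of members past the adjusted threshold between fractions stayed at 0 in all settings but array weights, which gave 5 members and 2174 genes in all, from an estimation that stopped before its tolerance. The count at an unadjusted p under 0.05 was 0 in the fit as reported (6.23% of all genes). It was 20 with array weights (33.5% of all genes), 1 after quantile normalization (5.45%) and 3 with the replicate block (12.4%). Without both samples numbered 1 it was 14 (21%). Leaving out 1 sample gave 0 to 11 (3.43% to 22.3% of all genes), 11 being without GPR15+ numbered 1. The 6 calls for the title number (1.82% of all genes) were 2 with array weights (0.667%). They were also 2 after quantile normalization (0.703%) and 2 with the intensity trend removed (0.785%). Without both samples numbered 1, where only numbers 5 and 6 are compared, there were 0, with 1 gene called in all. Leaving out 1 sample, in fits added after seeing the data, gave 2 to 21. The count was 21 without GPR15- numbered 1 (10.2%), 2 without GPR15+ numbered 1 (0.492%) and 3 without GPR15+ numbered 5 (0.605%). The 29 genes with both samples numbered 1 lowest (15.8% of all genes) were 29 after median centring (17.4%). They were 26 after quantile normalization (14.3%) and 26 with the trend removed (16.7%). These settings were also added after seeing the data. Leaving out 1 sample moved the median difference from -0.33 to 0.44 in the core, -0.051 to 0.60 in the immunoproteasome (0.52 with array weights), -0.051 to 0.41 in the cap, -0.02 to 0.19 in the chaperones, 0.02 to 0.43 in the other activators, and the immunoproteasome index from -0.054 to 0.34. Of 503 values of named genes between the fractions under the alternatives, 6 passed after adjustment. Of 34 named genes, 22 turned sign in at least 1 setting. Among them were Psmb6, Psmb7, Psma6 and Psma7, which stood below 0 on quantile normalization and on trend removal. The cause was not tested. The signal over background is unknown here, so dim genes such as Psmg2 and Psme4 have no stated floor.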
